A study of Mus musculus with 5 samples.

Results

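Matrix proteases and the proteins that restrain them were followed in undifferentiated mouse embryonic stem cells labelled Mkl2-/- or wild type. The group holds 10 genes of the 19938 tested. They encode the gelatinases Mmp2 and Mmp9, the membrane-anchored metalloproteinase Mmp14, the aggrecanase-type protease Adamts1, the tissue inhibitors of metalloproteinases Timp1, Timp2 and Timp3, the plasminogen activators Plat and Plau, and the urokinase receptor Plaur. Members were taken by gene symbol, and each was read by 1 array feature that carries that symbol alone. The choice of genes used no measured value, but it was made with earlier results of these data known.

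There were 3 Mkl2-/- and 2 wild-type cultures, both of strain C57BL/6, and each gave 1 array. Cells of both genotypes grew on gelatin and a feeder layer of mouse embryonic fibroblasts with fetal bovine serum and leukaemia inhibitory factor. Feeders were then left to attach to a dish, and the cells still in suspension were lysed. The sources used here do not say how the Mkl2 allele was made or whether a genotype's cultures came from 1 or several lines, so each p-value measures the spread between cultures. Mkl2, now named Mrtfb, is a cofactor of serum response factor, and the series asks what its loss does to TGF-beta signalling.

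Matrix metalloproteinases are zinc enzymes that are made as inactive precursors and cut collagens, laminins and other matrix proteins. TIMP proteins bind the active enzymes and block them, and Timp3 is known for staying bound to the matrix and for also blocking ADAM and ADAMTS enzymes. Plat and Plau turn plasminogen into plasmin, which cuts fibrin and matrix and can activate some metalloproteinase precursors, while Plaur holds Plau at the cell surface. Mmp14 at the cell surface activates the Mmp2 precursor in a complex that includes Timp2. In early mouse development such enzymes are known from trophoblast invasion and from the parietal endoderm, which secretes Plat.

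The upstream sequences of the genes with the largest falls, Adamts1 and Timp3, are shown beside those of Timp1 and Timp2, the other inhibitors of the Timp3 family, whose differences did not pass the test. Each line holds the 250 bases before the gene's start in RefSeq (build GRCm38.p6), written 5′ to 3′ on the gene's strand. Capitals mark a CArG box, the site bound by serum response factor, with at most 1 departing base, the AP-1 motif TGANTCA or a TATAAA motif.
Adamts1: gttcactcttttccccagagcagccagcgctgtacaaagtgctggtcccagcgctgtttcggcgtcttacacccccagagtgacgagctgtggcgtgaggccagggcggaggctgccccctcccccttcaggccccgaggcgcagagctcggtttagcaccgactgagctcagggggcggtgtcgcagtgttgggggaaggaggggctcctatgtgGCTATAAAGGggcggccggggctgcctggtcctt
Timp3: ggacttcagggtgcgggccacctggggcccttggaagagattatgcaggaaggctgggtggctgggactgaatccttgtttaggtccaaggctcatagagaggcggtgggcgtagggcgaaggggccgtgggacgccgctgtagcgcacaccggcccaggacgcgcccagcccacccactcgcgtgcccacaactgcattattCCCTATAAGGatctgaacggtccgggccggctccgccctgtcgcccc
Timp1: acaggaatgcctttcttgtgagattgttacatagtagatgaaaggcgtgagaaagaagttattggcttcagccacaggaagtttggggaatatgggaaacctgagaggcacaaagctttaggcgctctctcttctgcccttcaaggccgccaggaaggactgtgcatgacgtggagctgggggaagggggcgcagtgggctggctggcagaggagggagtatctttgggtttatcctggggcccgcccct
Timp2: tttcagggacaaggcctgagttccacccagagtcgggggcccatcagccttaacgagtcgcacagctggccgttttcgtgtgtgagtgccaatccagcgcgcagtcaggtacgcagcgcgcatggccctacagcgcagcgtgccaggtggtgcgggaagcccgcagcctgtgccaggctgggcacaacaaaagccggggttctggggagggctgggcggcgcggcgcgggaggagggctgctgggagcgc
The Adamts1 window lies at chr16:85803114-85803363 on the minus strand, Timp3 at chr10:86300162-86300411 on the plus strand, Timp1 at chrX:20869916-20870165 on the plus strand and Timp2 at chr11:118355412-118355661 on the minus strand.

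RefSeq's table held a promoter for 6 of the 10 genes, and both strands of each were searched. None of the 6 windows held a full CArG box, which 1.47% of all 32851 windows of this length held. A CArG box with 1 departing base was found in Adamts1 (GCTATAAAGG, from -34 to -25 with the start at 0), in Timp3 (CCCTATAAGG, -47 to -38), in Plaur and at 2 places in Mmp14, against 17.5% of all windows. Mmp14 and Plaur, whose windows are not printed here, did not pass the test. The match thus stood in genes that fell and in genes that did not pass. In Adamts1 this match overlaps a TATAAA motif, which 12.4% of all windows held. Plaur, whose level did not pass the test, held the AP-1 motif TGACTCA, which 6.75% of windows matched. All 6 windows held GGGCGG on either strand, against 32.7% of all windows. GGAATG stood in 1 of them, Timp1 (12.6% of all windows), and CAGAC in 0 (42.2%). A match describes the letters only, and no match says nothing of the factor.

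Of the 10 genes, 4 fell in Mkl2-/- cells, 0 rose and 6 did not pass the test. Those that fell were Adamts1, Timp3, Mmp9 and Mmp2, and they include enzymes as well as an inhibitor. The test was limma across all 19938 genes with Benjamini-Hochberg adjustment and a threshold of 0.05. It called 6.28% of all genes lower and 2.99% higher (9.27% together), and 8.78% lower and 4.15% higher among the 13564 genes above background, where 9 of the 10 genes lay. In 7 of the 10 genes all 3 Mkl2-/- arrays lay below both wild-type arrays, against 16.7% of all genes and 22.7% of those above background. Since the genes were chosen with earlier results known, these shares are a description. In 0 of the 10 did they all lie above, against 16.9%. The median difference of the 10 genes was -0.24 on the log2 scale, and that of all genes was 0.02.

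**Figure D1:**
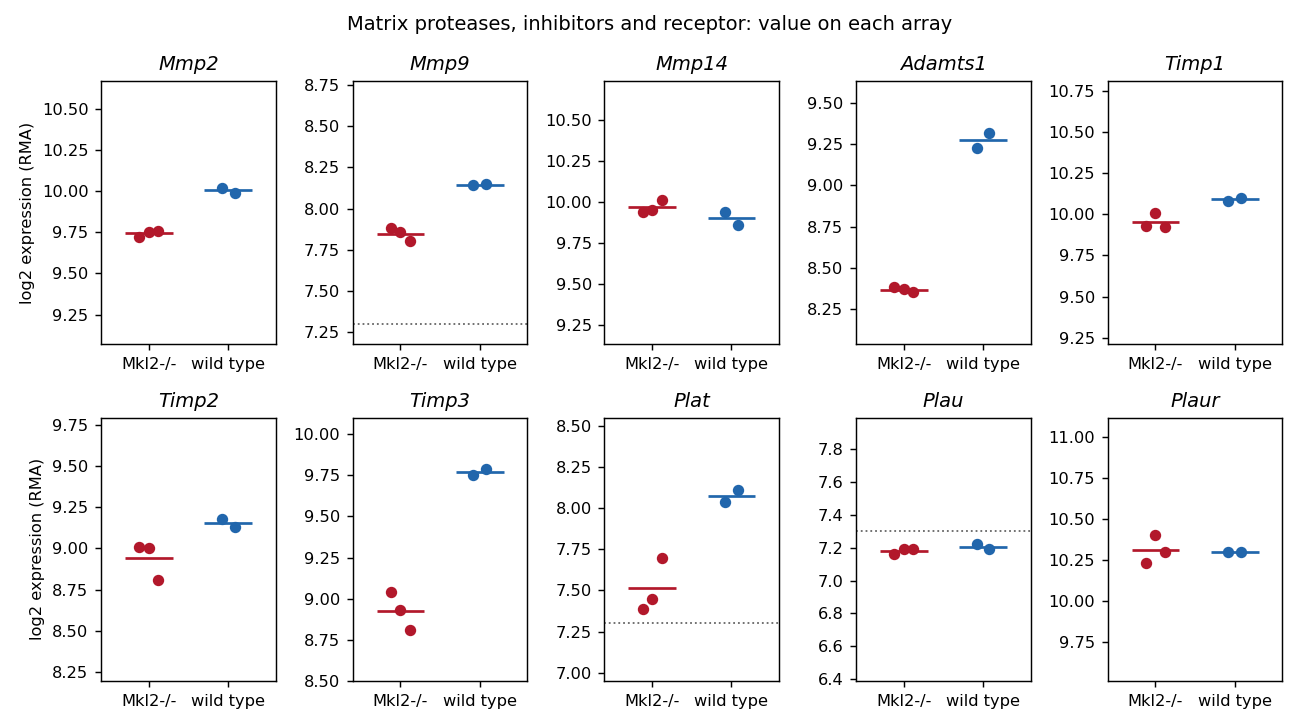
Log2 expression (RMA) of each gene on each array, with Mkl2-/- cultures left (3 points) and wild-type cultures right (2 points) of every panel, and a bar at the group mean. Every panel spans the same height, and a dotted line marks the background level of 7.30 where it falls inside. Adamts1 and Timp3 show the widest gaps, with Mkl2-/- below wild type, and the points of Mmp14, Plau and Plaur overlap or touch.

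Several facts of the arrays bear on every value. The values are the authors' log2 intensities, and levels of the 10 genes were not ranked against each other. The brightness of probes differs between genes, so the summed levels of marker lists given here weight bright probes most. The background level, the 95th percentile of 1027 olfactory receptor genes, was 7.30. The targeted gene read 9.32, 9.32 and 9.09 in Mkl2-/- cultures, against 9.80 and 9.75 in wild-type cultures, at the brightest of its 3 features. This Mrtfb feature differed by -0.53 ± 0.09 (SE, adjusted p = 0.048), and the others by -0.83 and -0.98. The sources used here do not place them against the deleted part, so they do not check the deletion. Wild-type replicate 1 had the same value to 2 decimals as Mkl2-/- replicates 1 and 2 in 27.5% and 26.5% of genes, and as wild-type replicate 2 in 19.4%. Yet over all genes its correlation was 0.9988 with wild-type replicate 2 and 0.9938 with either of these Mkl2-/- replicates. The SD of its differences was 0.098 from wild-type replicate 2 and 0.216 from either of them. Over the 10 genes, the median absolute difference between arrays was 0.030 to 0.075 within a genotype and 0.185 to 0.30 between genotypes.

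All 10 embryonic stem cell markers lay above background on every array, but they did not all keep their level. Of these 3 rose, Fgf4 (0.67), Dppa5a (0.49) and Utf1 (0.39), and Nanog, a core pluripotency factor, fell by 1.14 (adjusted p = 0.0082). The Nanog difference was larger than that of any of the 10 protease genes. Dppa5a read 13.46, 13.40 and 13.47 in Mkl2-/- cultures, against 12.86 and 13.04 in wild-type cultures, and for Tdgf1 the means were 12.68 in Mkl2-/- cultures and 12.75 in wild-type cultures. Of 24 fibroblast markers, the feeder list, 20 lay above background by their mean, 2 fell (Fstl1 and Pdgfrb), 1 rose (Twist1) and the list's median difference was -0.05. The 4 at or below background were Lum, Postn, Fap and Dpt. The summed linear intensity of the 24 was 6730 to 6900 in Mkl2-/- cultures and 7961 to 8042 in wild-type cultures. Most of that gap came from Fstl1, which fell by 0.88 on the log2 scale (adjusted p = 0.011). Without it the sums were 5570 to 5818 in Mkl2-/- cultures and 5955 to 6064 in wild-type cultures. Col1a1, the next brightest, differed by -0.29 (adjusted p = 0.090). Mmp2 and the TIMP genes are examples of members also expressed by fibroblasts. In such bulk samples fewer cells of a type and less RNA per cell cannot be told apart, for Adamts1 as for each other member. The fibroblast marker mean was 7.745 to 7.80 in Mkl2-/- cultures and 7.85 to 7.86 in wild-type cultures, without overlap. With this mean as a covariate the differences were -0.93 ± 0.10 (SE) for Adamts1 and -0.77 ± 0.23 for Timp3. They were -0.30 ± 0.09 for Mmp9 and -0.29 ± 0.06 for Mmp2. Since the covariate itself parts the genotypes, the fit cannot tell a share of feeders from genotype. That fit called 0 of 19938 genes (2100 had an unadjusted p under 0.05).

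Adamts1, a secreted protease that cuts the proteoglycans versican and aggrecan, had the largest difference of the 10 genes. It read 8.38, 8.37 and 8.35 in Mkl2-/- cultures, against 9.23 and 9.32 in wild-type cultures. The Mkl2-/- arrays lay within 0.03 of each other and 0.85 below the lower wild-type array. Adamts1 fell 1.88-fold (-0.91 ± 0.0325 SE, n = 3 and 2; adjusted p = 0.0060), which ranked 185th by size among all genes. The call was lost without wild-type replicate 2 (difference -0.86), as were those of all other genes, in a fit with 1 wild-type array left. Without wild-type replicate 1 the difference was -0.95. The Adamts1 call held with each Mkl2-/- array left out (adjusted p = 0.036 to 0.042).

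The gelatinases fell by smaller amounts. Mmp2, which cuts denatured and basement membrane collagens, read 9.72, 9.75 and 9.76 in Mkl2-/- cultures, against 10.02 and 9.99 in wild-type cultures. Mmp9, the other gelatinase, read 7.88, 7.86 and 7.80 in Mkl2-/- cultures, against 8.14 and 8.15 in wild-type cultures. For both genes every Mkl2-/- array was below every wild-type array, and the arrays of a genotype were close together. Mmp2 fell 1.20-fold (-0.26 ± 0.019 SE; adjusted p = 0.011) and Mmp9 fell 1.23-fold (-0.30 ± 0.029 SE; adjusted p = 0.017). The Mmp2 call was lost whichever array was left out (adjusted p = 0.052 to 0.067), and Mmp9 passed only without Mkl2-/- replicate 3 (adjusted p = 0.036, and 0.062 to 0.107 with each other array left out).

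Mmp14, the membrane-anchored activator of the Mmp2 precursor, did not pass the test. It read 9.94, 9.95 and 10.01 in Mkl2-/- cultures, against 9.94 and 9.86 in wild-type cultures. The groups shared the value 9.94. The difference was 0.07 ± 0.037 SE with a 95% interval from -0.04 to 0.17 (adjusted p = 0.39), so a fall the size of that of Mmp2 lay outside the interval.

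**Figure D2:**
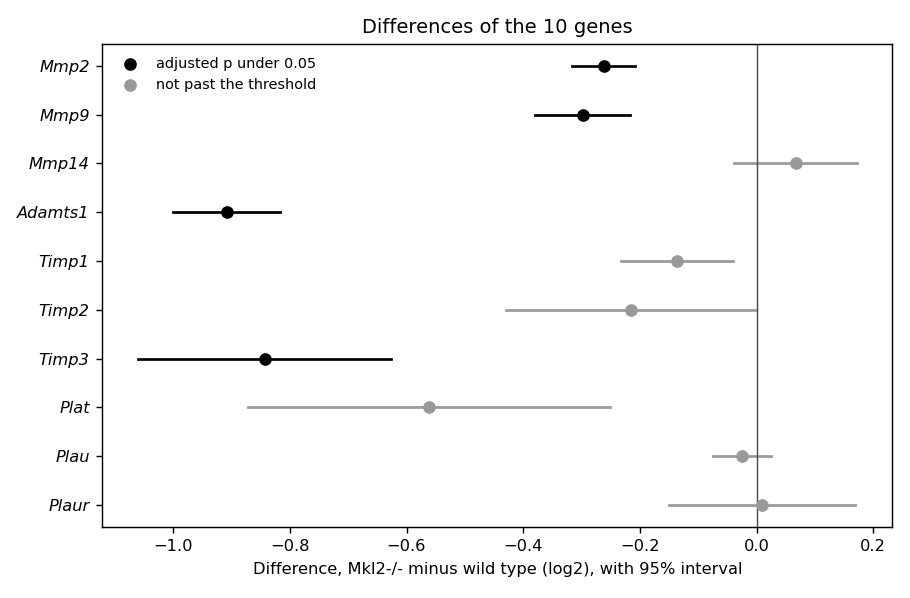
Difference of each gene, Mkl2-/- minus wild type on the log2 scale, as a point with its unadjusted 95% interval from limma. Black marks the genes past an adjusted p of 0.05 (Mmp2, Mmp9, Adamts1 and Timp3, all lower in Mkl2-/-) and grey the others. The interval of Plat is the widest.

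Among the inhibitors, Timp3 fell and Timp1 and Timp2 did not pass the test. Timp3 read 9.04, 8.93 and 8.81 in Mkl2-/- cultures, against 9.75 and 9.79 in wild-type cultures. The highest Mkl2-/- array was 0.71 below the lower wild-type array. Timp3 fell 1.79-fold (-0.84 ± 0.077 SE; adjusted p = 0.015). The Timp3 call held without Mkl2-/- replicate 1 or 3 (adjusted p = 0.0495 and 0.0497) and was lost without Mkl2-/- replicate 2 (0.081), wild-type replicate 1 (0.077) or wild-type replicate 2 (0.104).

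Timp1, a soluble inhibitor of many secreted metalloproteinases, read 9.93, 10.01 and 9.92 in Mkl2-/- cultures, against 10.08 and 10.10 in wild-type cultures. Timp2, the inhibitor that takes part in Mmp2 activation, read 9.01, 9.0 and 8.81 in Mkl2-/- cultures, against 9.18 and 9.13 in wild-type cultures. For both genes the Mkl2-/- arrays lay below the wild-type arrays, but by little against their spread, and Mkl2-/- replicate 3 was low for Timp2. The differences were -0.14 ± 0.034 SE for Timp1 (95% interval -0.23 to -0.04, adjusted p = 0.109) and -0.215 ± 0.076 SE for Timp2 (95% interval -0.43 to -0.001, adjusted p = 0.216). The interval of Timp1 and that of Timp2 do not reach the interval of Timp3, which runs from -1.06 to -0.63. The difference between these genes was not itself tested.

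Plat, the tissue-type plasminogen activator, differed more than the gelatinases but varied more between cultures. It read 7.39, 7.45 and 7.70 in Mkl2-/- cultures, against 8.04 and 8.11 in wild-type cultures. Mkl2-/- replicate 3 was the high one of its group, yet all 3 were below both wild-type arrays. The Mkl2-/- values 7.39 and 7.45 lay close to the background level of 7.30. The difference was -0.56 ± 0.11 SE (1.48-fold, 95% interval -0.87 to -0.25) and missed the threshold (adjusted p = 0.067). Plat passed among genes above background only (adjusted p = 0.041), after cyclic loess (0.0092) or quantile normalization (0.0074), and without Mkl2-/- replicate 3 (0.048). Its direction was the same in all 13 alternatives, most of which could not reverse it, since the groups do not overlap.

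Plau and Plaur, the urokinase-type activator and its receptor, did not pass the test. Plaur read 10.23, 10.40 and 10.30 in Mkl2-/- cultures, against 10.30 in both wild-type cultures. The wild-type value lay inside the Mkl2-/- range, and the difference was 0.01 with a 95% interval from -0.15 to 0.17 (adjusted p = 0.94). Plau read 7.16, 7.19 and 7.19 in Mkl2-/- cultures, against 7.22 and 7.19 in wild-type cultures. All 5 Plau values lay under the background level of 7.30, so no fold is given for it.

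Markers of other cell types that make these proteases moved in different directions. Beside the counts of each list here, 6.28% of all genes were called lower and 2.99% higher. Among all genes above background these shares were 8.78% and 4.15%. Of 14 endoderm markers 12 lay above background by their mean, 4 rose and 1 fell, with a median difference of 0.21. Gata6 (0.935), Gata4 (0.93), Pdgfra (0.75) and Lamb1 (0.19) rose, Sparc, the brightest, fell by 0.24, and Dab2 differed by -0.06 (adjusted p = 0.40). In 8 of the 14 all Mkl2-/- arrays lay above both wild-type arrays, against 16.9% of all genes. The list's mean log2 level was 8.71 to 8.85 on Mkl2-/- arrays and 8.44 to 8.52 on wild-type arrays, while its summed linear intensity overlapped, with 10861 to 11805 on Mkl2-/- arrays and 10983 to 11143 on wild-type arrays. Of 10 measured trophoblast markers 7 lay above background by their mean, 3 fell and 0 rose. The keratin genes Krt8 and Krt18 fell by 0.54 and 0.65 and the lineage factor Cdx2 by 0.37, while Eomes differed by -0.01 (adjusted p = 0.72) and Hand1 by 0.47 (adjusted p = 0.065). The summed linear intensity of this list was 10228 to 11246 on Mkl2-/- arrays and 14434 to 14901 on wild-type arrays. Without Krt8 and Krt18 the sums overlapped, with 2181 to 2288 on Mkl2-/- arrays and 2221 to 2281 on wild-type arrays. Of 10 blood and endothelial markers 6 lay above background by their mean and 1 fell, the angiopoietin receptor gene Tek (by 0.20), and the brightest, Cd68, differed by 0.03 (adjusted p = 0.65). The part of these markers in the values of Mmp9, Timp3 and Plat was not tested.

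The changes of the 10 genes were set beside 96 other genes of the same systems, of which 89 were measured. Among these 11 fell, 2 rose and 76 did not pass the test, which is 12.4% lower and 2.25% higher, with a median difference of 0.02. Over all genes 6.28% were lower and 2.99% higher. Among genes above background, where 57 of the 89 lay, 8.78% were lower and 4.15% higher. By list, the share lower ran from 7.69% to 25.0%, and these shares are a description. Of 19 other matrix metalloproteinases 2 fell, Mmp25, a GPI-anchored enzyme (-0.49, adjusted p = 0.025), and Mmp16, a membrane-type enzyme (-0.33, adjusted p = 0.021, with 1 of 3 Mkl2-/- arrays below background). The other 17 did not pass, and 11 of the 19 lay at or below background by their mean. Of 26 ADAMTS and ADAM genes, Adamts6 (-0.62, adjusted p = 0.018) and the sheddase Adam9 (-0.50, adjusted p = 0.014) fell and Adam19, also a sheddase, rose (0.67, adjusted p = 0.020). The genes of this class thus passed in both directions.

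**Figure D3:**
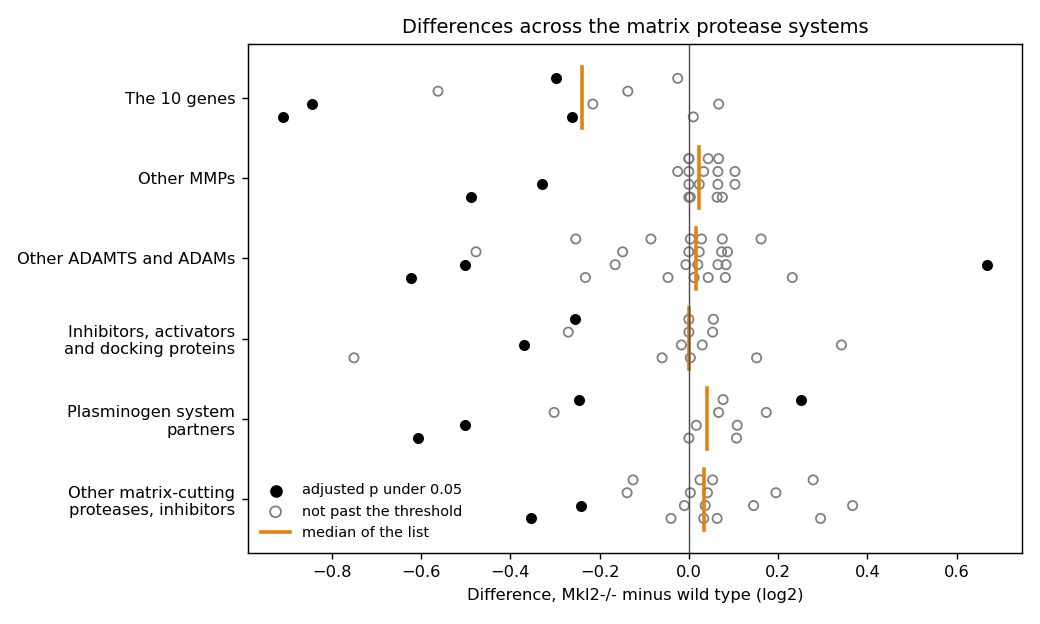
Differences (Mkl2-/- minus wild type, log2) of the 10 genes and of 89 other genes in 5 lists, with 1 point a gene, filled where the adjusted p is under 0.05, and an orange bar at each list's median. The median of the 10 genes is -0.24, those of the other lists lie between 0.00 and 0.04, and 2 of the 89 other genes rose.

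Some genes of the plasminogen system and some partners of the metalloproteinases also fell, where 6.28% of all genes were called lower. Of 12 measured plasminogen partners 3 fell and 1 rose. Lrp1, the endocytic receptor that clears protease and inhibitor complexes, read 9.45, 9.45 and 9.46 in Mkl2-/- cultures, against 9.99 and 9.92 in wild-type cultures, and fell 1.42-fold (adjusted p = 0.0074). Anxa2 and S100a10, whose products form a plasminogen-binding complex at the cell surface, fell by 0.61 (adjusted p = 0.018) and 0.245 (adjusted p = 0.042). Serpini1, which encodes neuroserpin, an inhibitor of Plat, rose by 0.25 (8.02, 8.05 and 8.01 in Mkl2-/- cultures, against 7.75 and 7.80 in wild-type cultures; adjusted p = 0.016). Of 14 other inhibitors, activators and docking proteins 2 fell. They were Reck, a membrane-anchored inhibitor of metalloproteinases (-0.37, adjusted p = 0.020), and Furin, a convertase that activates Mmp14 and other precursors (-0.255, adjusted p = 0.049). Of 18 other proteases that cut matrix and their inhibitors, Cst3, which encodes the cathepsin inhibitor cystatin C (-0.24, adjusted p = 0.017), and Bmp1, a procollagen protease (-0.35, adjusted p = 0.024), fell.

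Genes beside the 10 on the chromosomes had median differences near 0. For each gene the 10 nearest genes above background on either side were read, in RefSeq's order. The median difference of these 20 neighbours lay between -0.02 and 0.07 for all 10 genes. Beside Adamts1 on chromosome 16, which also carries Mkl2, 1 of 20 neighbours fell and 2 rose, with a median of 0.07. Among all genes above background 8.78% were called lower and 4.15% higher. Around Timp3 on chromosome 10, 0 fell and 1 rose, and Syn3, the gene in which Timp3 is nested, read 7.72 on all 5 arrays. Syn1, the host gene of Timp1 on the X chromosome, differed by 0.05. Near Plat on chromosome 8, Sfrp1, a secreted Wnt antagonist, fell by 1.265. These neighbours were named after their values were seen.

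**Figure D4:**
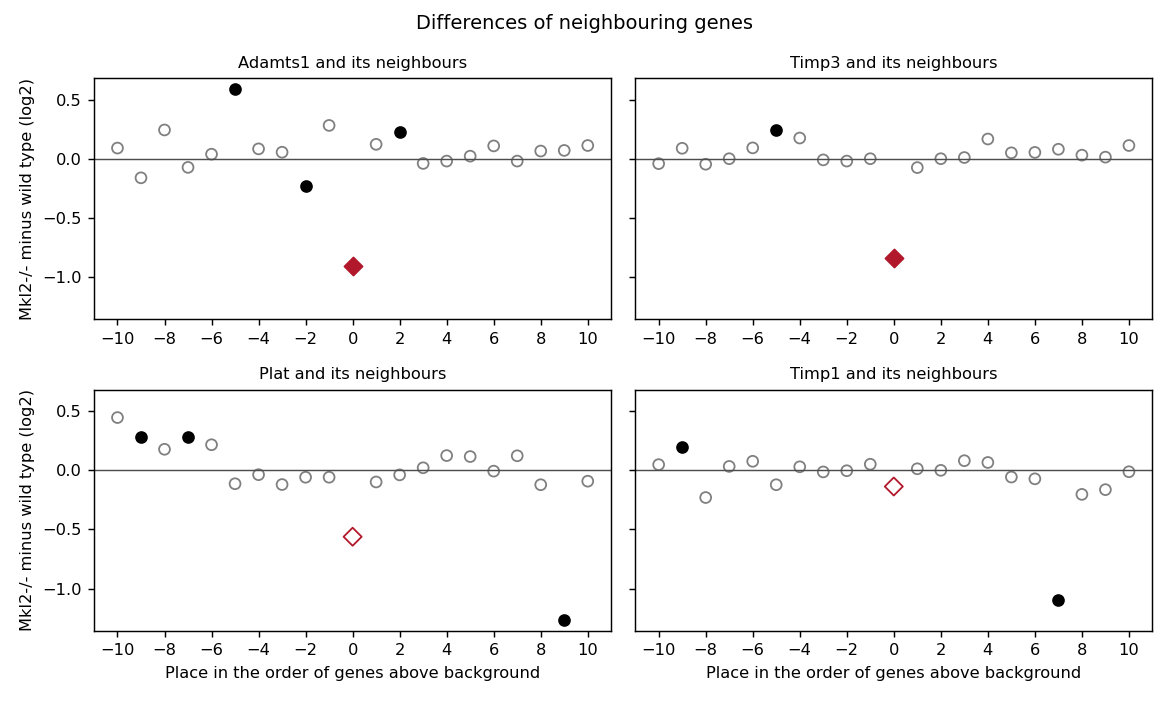
Differences (Mkl2-/- minus wild type, log2) of Adamts1, Timp3, Plat and Timp1, drawn as red diamonds at place 0, and of the 10 nearest genes above background on either side, drawn as circles in gene order. Filled symbols passed an adjusted p of 0.05. Adamts1 and Timp3 lie apart from all their neighbours, whose medians are 0.07 and 0.02.

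By likeness to Adamts1, the profiles nearest to it over the 5 arrays were those of Prtg, Eefsec and Macroh2a1. The root mean square distance after centring each gene on its mean was 0.029, 0.033 and 0.034 on the log2 scale. Prtg read 10.50, 10.47 and 10.46 in Mkl2-/- cultures, against 11.30 and 11.36 in wild-type cultures. With 5 arrays in 2 groups, such a profile says little more than the size of the difference and a small spread.

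The direction of Adamts1, Timp3, Mmp9, Mmp2 and Plat was the same in each of the 13 alternatives, while the calls depended on them. For these genes every Mkl2-/- array lay below every wild-type array. Leaving out an array or changing the filter, prior or features therefore could not reverse the direction. No member passed with the replicate block or the fibroblast covariate, where 0 of 19938 genes were called. Nor did any gene pass without wild-type replicate 2. Averaged features and all features as rows kept each member's difference as reported, since each member has 1 feature. Of those 13 fits, Adamts1 passed in 10, Timp3 in 8, Mmp9 in 7, Mmp2 in 6 and Plat in 4. Timp1, Timp2, Mmp14 and Plaur passed in 0 of 13 and Plau in 0 of the 12 that tested it.

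**Figure D5:**
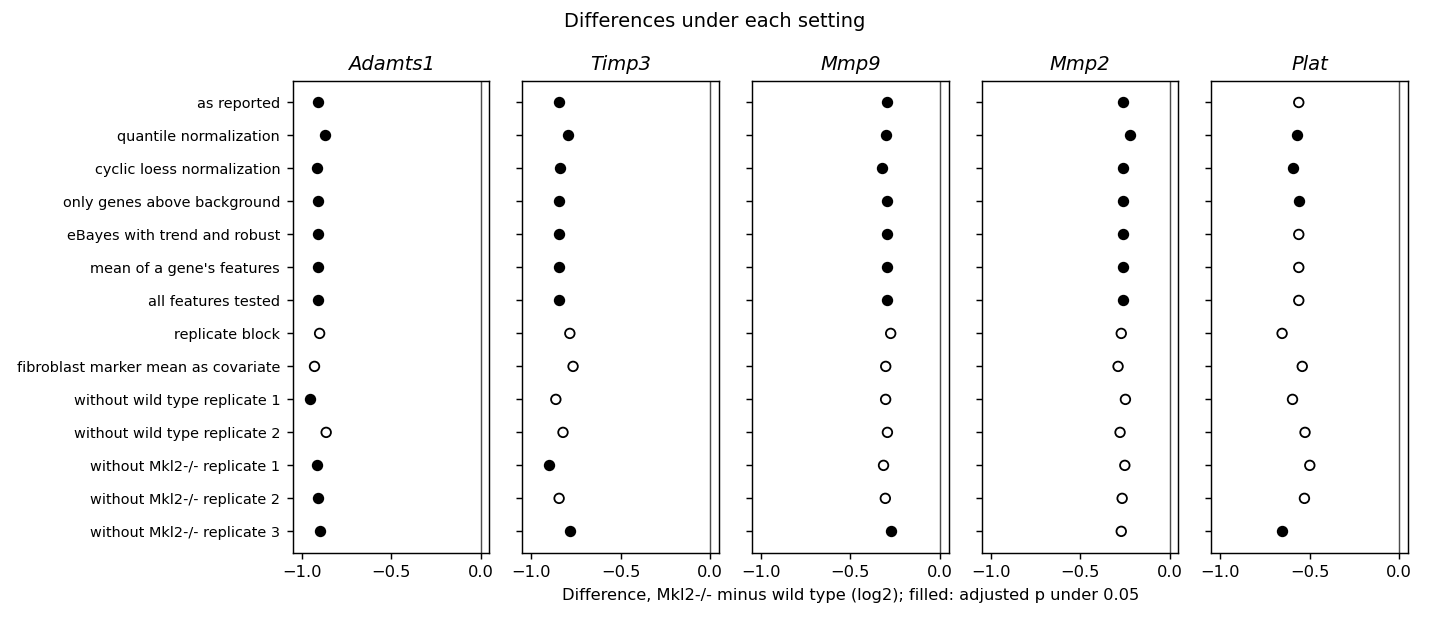
Difference (Mkl2-/- minus wild type, log2) of 5 genes as reported and under each of 13 alternatives, down the page, filled where the adjusted p is under 0.05. All points lie left of 0, between -0.95 and -0.22. For Adamts1, Timp3, Mmp9 and Mmp2 the open points lie in the fits with a block, a covariate or 1 array fewer. Plat is also open as reported and with the trended robust prior, averaged features or all features as rows.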

How the data were processed

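The deposited values are log2 intensities, for which the submitters' processing notes name RMA and Affymetrix Expression Console 1.1. RMA in general corrects background, normalizes quantiles and summarizes probes, which compresses dim features. The table held 35556 features, with values from 3.39 to 14.26 and array medians of 7.94 to 7.98. The sources used here name no scan date, batch or build, and precision is limited by having 5 arrays. Of the features, 21789 had 1 gene symbol, 1621 several and 12146 none in the platform annotation. Each of 19938 genes was read by its brightest feature; the 10 members have 1 feature each. For Mkl2 the annotation gives the symbol Mrtfb.

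The genotypes were compared by limma 3.58.1 (lmFit, eBayes; R 4.3.3) with 3 residual and 0.885 prior degrees of freedom, two-sided, with Benjamini-Hochberg adjustment over all genes. Members and lists were chosen with earlier results of these data known. The text names every member, up to 4 called genes with the smallest p of each protease list, the 2 brightest genes of each marker list and the 3 profiles nearest to the member with the largest difference. Other marker genes, the neighbours named and the sums without single markers were chosen after their values were seen. Tested on simulated data with 19938 genes and 50 changed genes per fold, the fit recovered 32% of the changes of 1.25-fold. It recovered 66% of those of 1.5-fold, 92% of those of 2-fold and 96% of those of 4-fold, with 8 false calls among 151. Of 96 listed protease genes 89 had a feature of their own symbol alone, and the others were not analysed here. Alternatives were quantile and cyclic loess normalization, a filter on dim genes, a trended robust prior, averaged features, all features as rows, a replicate block, a fibroblast covariate and each array left out. Figures were drawn with matplotlib 3.10.9.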

Additional observations from a re-analysis of the deposited data

How the results depend on the processing

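The number of members called lower was 4 as reported, between 4 and 5 under the 6 alternatives of normalization, filter, prior and features, and 0 to 4 with 1 array left out. It was 0 with the replicate block, with the fibroblast covariate and without wild-type replicate 2, 1 without wild-type replicate 1 or Mkl2-/- replicate 2, and 2 without Mkl2-/- replicate 1. In none of the 13 alternatives was a member called higher. Of the other protease genes, 11 fell and 2 rose as reported; 0 to 3 fell and 0 to 2 rose with 1 array left out, 0 of either with the replicate block or the covariate, and 5, 5 and 4 rose after quantile normalization, after cyclic loess and among genes above background. Plaur turned to -0.26 with the covariate and -0.035 without Mkl2-/- replicate 2, neither past the test. Over all genes, 1252 were lower and 596 higher as reported (32.3% of calls higher), 1751 and 1483 after quantile normalization (45.9%), 1977 and 1005 after cyclic loess, and 490 and 473 without wild-type replicate 1 (49.1%). Without Mkl2-/- replicates 1, 2 and 3 there were 253 and 80, 309 and 94, and 326 and 122. limma called 0 of 19938 genes with the replicate block, the covariate and without wild-type replicate 2, where 3827, 2100 and 4411 had an unadjusted p under 0.05. These fits had 1, 2 and 2 residual degrees of freedom, against 3. The cause of the changes with normalization was not tested. The labels do not say whether the replicate numbers pair samples. Replicate 3 exists only in Mkl2-/-, so with the block that array has no part in the difference. With the block and without Mkl2-/- replicate 3, the difference was the same for Adamts1 (-0.90) and for Timp3 (-0.785). Deviations of same-numbered arrays correlated at -0.201 and 0.19. With 2 wild-type arrays their deviations mirror each other, so these values cannot decide it. With 1 wild-type array left, that array is assumed to vary like the Mkl2-/- group.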

Other observations

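Of the 89 other protease genes measured, 8 read the same to 2 decimals on all 5 arrays, as did 766 of 19938 genes in all. Among the 10 members, 0 did.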
